A study of Mus with 15 samples.

Results

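This report describes H2Aub peaks at 10 genes that encode secreted morphogens, namely the hedgehog ligands Shh, Ihh and Dhh, the bone morphogenetic proteins Bmp2, Bmp4, Bmp6, Bmp7 and Bmp8b, and the growth differentiation factors Gdf6 and Gdf7. The genes were taken by name, with earlier results of these data known, from the 21887 protein-coding genes placed on chromosomes 1 to 19, X and Y. For each gene a window was laid over the gene body plus 5 kb on either side (mm10 assembly), and the number of base pairs under the peaks of a library was counted in it (covered length). The windows of the 10 genes add up to 422.158 kb.

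H2Aub, histone H2A with ubiquitin on a lysine of its tail, was profiled by ChIPmentation in mouse thalami, with 1 peak list for each of 11 libraries. Controls are called WT here after the sample titles, while their genotype label reads Maged1 Loxp. Maged1-cKO mice (cKO) carried a floxed Maged1 allele and Cre under the control of the vGluT2 promoter, so that the deletion was directed to cells that use this promoter and other cells of the tissue kept the gene. Mice of 2 to 4 months received saline for 3 days, and for the next 5 days either saline again or intraperitoneal cocaine at 20 mg/kg, and the methods describe hemizygous males. WT libraries numbered 3 after cocaine and 3 after saline, and cKO libraries 2 after cocaine and 3 after saline, each from pooled thalami. Per the labels 3 to 4 thalami entered a pool, whereas the methods allow 2. A further 4 input libraries were not analysed here.

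Hedgehog proteins are lipid-modified ligands that relieve the block that Patched receptors place on Smoothened, and the signal ends at the Gli transcription factors. Bmp and Gdf proteins are ligands of the TGF-β superfamily that bind pairs of type I and type II serine/threonine kinase receptors, which phosphorylate Smad proteins. In the embryo both families pattern the neural tube, the limb and the skeleton, Shh from ventral sources and several Bmp and Gdf proteins from dorsal ones. H2Aub is placed by Polycomb repressive complex 1 and is found over many developmental genes that are silent in differentiated cells.

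The lists differed in length. They held between 7271 and 80713 peaks that covered 4.24 to 27.6 Mb, and a minimum of reads is stated for all samples of the study, but the lists do not give the number behind each library. Libraries cKO cocaine replicate 1 and cKO saline replicate 1 stood apart from the other 9 libraries, with 54653 and 80713 peaks against 7271 to 26055, a median peak width of 206 and 198 bp against 242 to 429 bp, and a highest fold enrichment over input of 31.2 and 52.6 against 5.98 to 12.2. No library had a peak in the window of Maged1 (0 bp in 11 of 11), so the lists cannot check the deletion, and they hold nothing on the makeup of the dissected tissue. In such bulk tissue, fewer cells that carry the mark and less mark per cell cannot be told apart.

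The 10 genes were among the more widely covered genes of these lists. Of all protein-coding genes, 0.891% had a higher mean covered length than Gdf6, the highest of the set, and 7.62% a higher one than Bmp2, the lowest. A peak lay in the window in all 11 libraries at 8 of the 10 genes, the exceptions being Bmp2 (10 libraries) and Bmp8b (9 libraries). Over all protein-coding genes this share was 6.76%, and over the 2181 covered over at least 1000 bp on average (well-covered genes) 64.5%. The 8 genes became 2 with peaks of q at most 0.01 only, and 3 with the same number of peaks in every library. The well-covered genes stood at 16.6% and 16.4% under these settings. With the same number of peaks, Dhh, Gdf6 and Gdf7 lacked a peak only in cKO cocaine replicate 1 and cKO saline replicate 1. Peaks covered 5.49 to 13.99% of the summed windows, against 0.281 to 1.45% of the windows of all protein-coding genes. The ratio of these shares ran from 13.1 to 19.5 in 9 libraries and was 9.33 in cKO cocaine replicate 1 and 7.21 in cKO saline replicate 1.

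Per length of window, Gdf7 was the most covered of the 10 genes, at 39.7% ± 9.85 of its window (mean ± SD over 11 libraries, all groups together). Gdf6 followed with 31.9% ± 10.0, Bmp4 with 30.7% ± 6.68 and Ihh with 25.7% ± 8.14. Shh was next with 18.4% ± 13.2, the widest spread of the set, before Dhh with 12.3% ± 3.95. The other 4 genes were covered over a small part of their windows, Bmp2 over 6.52% ± 3.49, Bmp7 over 6.28% ± 2.99, Bmp8b over 4.92% ± 5.10 and Bmp6 over 0.977% ± 0.493. Neighbours in this order differed by less than the larger of their SDs, with the exception of Dhh and Bmp2. The gene bodies of Bmp6 (154599 bp) and Bmp7 (72310 bp) are the longest of the set, which lowers the share for a given covered length.

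**Figure D1:**
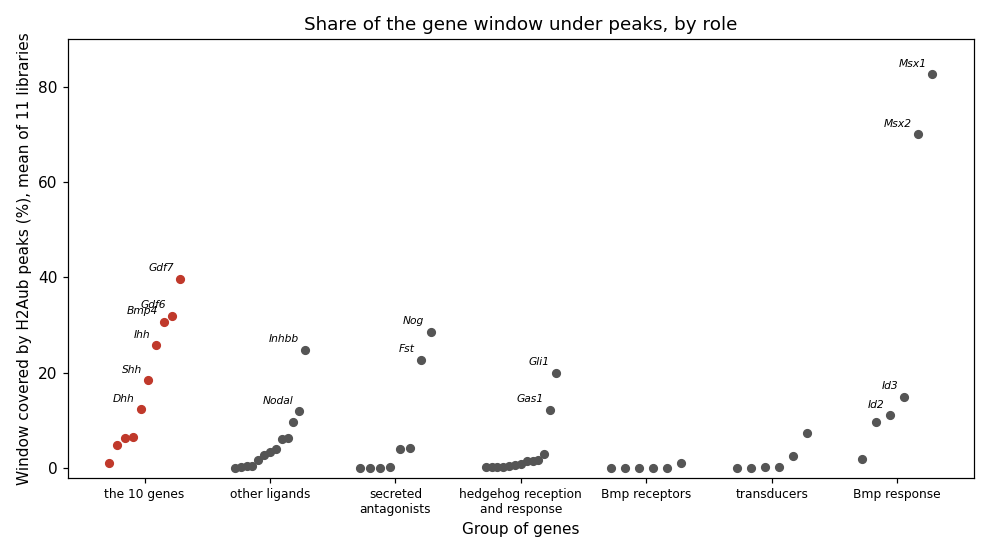
Percentage of each gene window (gene body plus 5 kb each side) that lay under H2Aub peaks, as the mean of 11 libraries; each point is a gene, red for the 10 morphogen genes and grey for 52 other genes of the hedgehog and Bmp pathways sorted by role. Gdf7 stands at 39.7% and Bmp6 at 0.977% among the red points, whereas Msx1 reaches 82.6% and all 6 Bmp receptors stay at or below 1.08%.

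Shh, the ligand that patterns the ventral neural tube, lies at chr5:28456840-28467101 with no other protein-coding gene in its window. Its covered length was 9206, 6931 and 4297 bp in WT cocaine, 3556, 1147 and 1797 in WT saline, 5092 and 1797 in cKO cocaine, and 5019, 1115 and 1109 bp in cKO saline. The 3 WT cocaine libraries were all above the 3 WT saline libraries, and in both cKO groups the replicate numbered 1 was the high value. On average over the libraries, 93.9% of the covered base pairs lay within the gene body. No base of the window was under a peak in all 11 libraries; the most shared stretch, chr5:28458816-28458993 in the gene body, was covered in 9.

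Ihh, the hedgehog ligand of growing cartilage, lies at chr1:74945315-74951672. It held the longest stretch of the set that was covered in every library, 1569 bp at chr1:74949733-74951301, inside the gene body and 371 bp from its higher-coordinate end. The covered length was 6341, 6400 and 3811 bp in WT cocaine, 4624, 3442 and 2946 in WT saline, 3539 and 4921 in cKO cocaine, and 4812, 3044 and 2424 bp in cKO saline. These groups overlapped. The widest peak of a library over Ihh measured 2017 to 6023 bp.

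Dhh, the ligand known from Schwann cells and the testis, lies at chr15:98881615-98898562, with Rhebl1 in its window. Coverage sat at one end of the gene. On average over the libraries, 97.2% of the covered base pairs lay within 5 kb of the higher-coordinate end. They lay around a stretch of 334 bp (chr15:98895200-98895533) present in all 11 libraries. The covered length was 5210, 4058 and 4196 bp in WT cocaine, 3522, 1780 and 3135 in WT saline, 3916 and 2788 in cKO cocaine, and 3707, 1935 and 2193 bp in cKO saline. Every WT cocaine library was above every library of the other 3 groups.

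Among the 10 genes, Bmp4 varied least over the libraries in proportion to its mean (coefficient of variation 21.8%). It encodes a ligand of dorsal neural and mesodermal patterning and lies at chr14:46383525-46390669. Its covered length was 6154, 6984 and 6113 bp in WT cocaine, 5336, 4359 and 2529 in WT saline, 5479 and 5588 in cKO cocaine, and 5315, 5061 and 4898 bp in cKO saline. The WT cocaine libraries again lay above all others, and the 5 cKO libraries spanned only 4898 to 5588 bp. A stretch of 677 bp (chr14:46389715-46390391) near the higher-coordinate end was covered in all 11 libraries.

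Bmp7, a ligand with roles in kidney and eye development, lies at chr2:172868012-172940321. Peaks gathered at its higher-coordinate end, where on average over the libraries 76.4% of the covered base pairs lay within 5 kb of it on either side. Covered length was 7455, 8789 and 5918 bp in WT cocaine, against 3569, 3309 and 3118 bp after saline, with no overlap between these groups. It was 8930 and 4745 bp in cKO cocaine and 6018, 1447 and 3556 bp in cKO saline, which overlapped. The bases shared by all 11 libraries numbered 36 and lay just outside the gene, at chr2:172941238-172941273.

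Bmp2 (chr2:133552159-133562896), a ligand of bone and heart formation, was covered only within 5 kb of its lower-coordinate end. The covered length was 2429, 1649 and 1269 bp in WT cocaine, 1462, 926 and 1233 in WT saline, 2522 and 657 in cKO cocaine, and 1575, 1153 and 0 bp in cKO saline. Bmp6 (chr13:38345716-38500314), known for its part in iron balance through hepcidin, was covered over 1666, 2612 and 1549 bp in WT cocaine, 2114, 605 and 1038 in WT saline, 2451 and 1339 in cKO cocaine, and 2876, 662 and 777 bp in cKO saline. Bmp6 peaks sat mainly at the lower-coordinate end as well, with a mean over the libraries of 95.3% of the covered base pairs within 5 kb of it. The groups overlapped at both genes. Txndc5 also reaches into the Bmp6 window.

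Bmp8b (chr4:123104308-123126094), a ligand with a known part in brown fat thermogenesis, varied most in proportion to its mean (coefficient of variation 104%). It was covered over 2031, 1472 and 2014 bp in WT cocaine, 1534, 0 and 323 in WT saline, 3806 and 686 in cKO cocaine, and 5035, 304 and 0 bp in cKO saline. The high values in the cKO groups were those of the libraries numbered 1, and 2 libraries had no peak. The window also holds parts of Oxct2b and Ppie.

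Gdf6, a ligand of joint and eye formation, lies at chr4:9844372-9862345 and had the greatest covered length of the set. It was 12366, 11855 and 10660 bp in WT cocaine, 11775, 6620 and 7131 in WT saline, 6941 and 9207 in cKO cocaine, and 4635, 11188 and 5675 bp in cKO saline. Both cKO cocaine libraries were below all WT cocaine libraries, while WT cocaine and WT saline overlapped through WT saline replicate 1. A stretch of 997 bp (chr4:9846730-9847726) was covered in every library, and 1576 bp of the window in all.

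Gdf7, a signal of the roof plate that acts on dorsal interneurons, lies at chr12:8297918-8301954, with Ldah reaching into its window. Its covered length was 6210, 7984 and 6963 bp in WT cocaine, 6190, 4765 and 5011 in WT saline, 5303 and 5796 in cKO cocaine, and 5121, 5374 and 2529 bp in cKO saline. WT cocaine was above the other 3 groups, only narrowly so over WT saline replicate 1. The widest peak measured 5781 to 6675 bp in WT cocaine, 2716 to 4281 bp in WT saline, 3129 to 4902 bp in cKO cocaine and 1428 to 4775 bp in cKO saline. A single peak thus reached past both ends of this short gene (4037 bp) in several libraries.

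**Figure D2:**
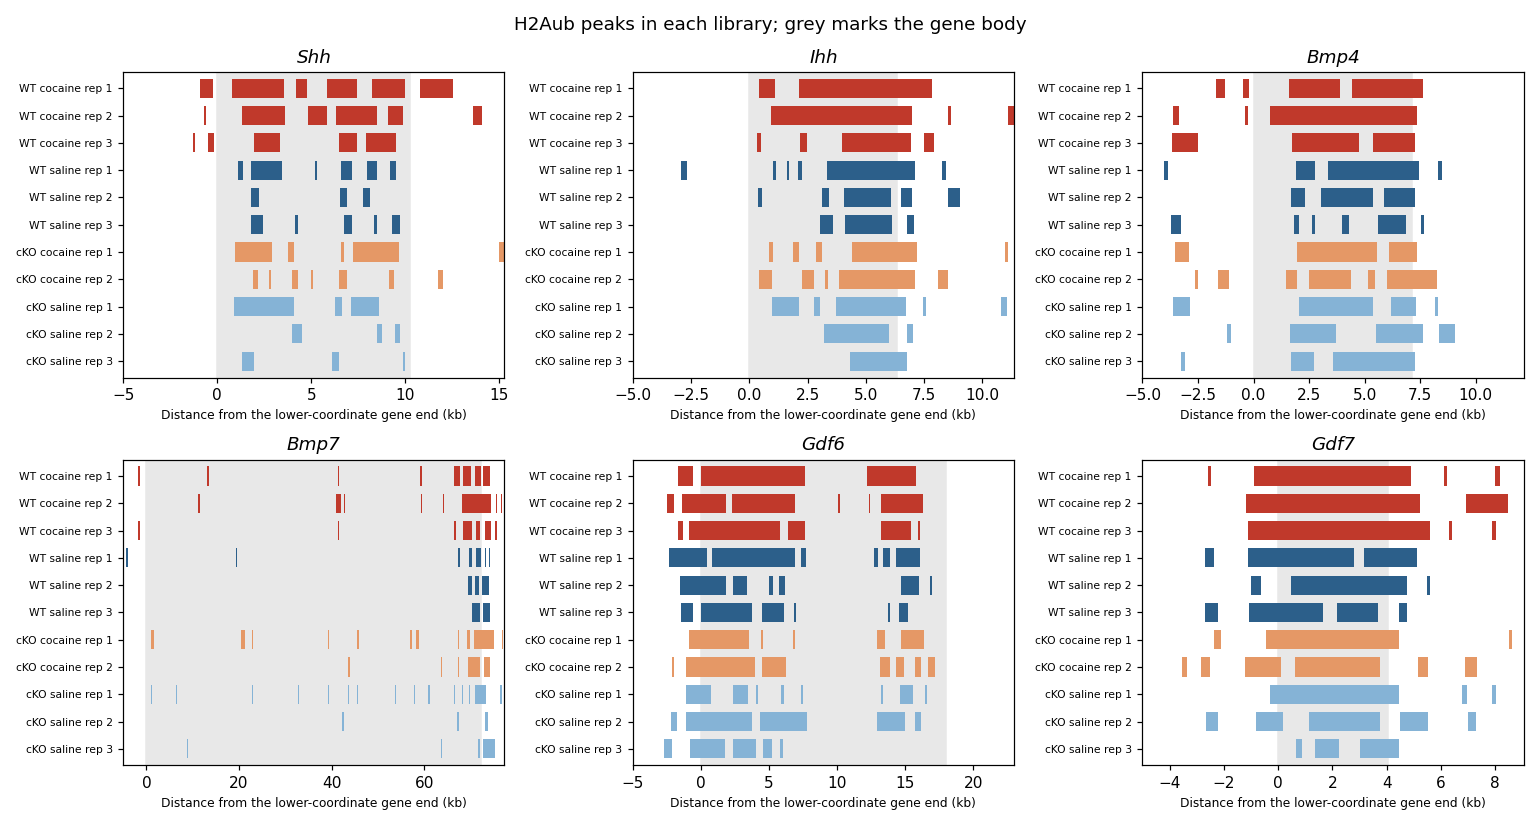
H2Aub peaks of 6 genes, drawn per library as bars against the distance in kb from the lower-coordinate end of the gene (horizontal axis), with the gene body in grey and 5 kb shown on each side; colours mark the 4 groups. Peaks of Ihh and Gdf7 overlap in all 11 libraries (1569 and 869 bp shared), those of Bmp7 gather at the higher-coordinate end, and Shh has no base shared by all libraries.

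Whether repeated cocaine goes with more or less H2Aub at these genes in control thalami was asked by setting WT cocaine against WT saline. The mean covered length was higher in WT cocaine at all 10 genes, as it was at 2088 of the 2181 well-covered genes. At Shh it was 6811 ± 2457 against 2167 ± 1246 bp (SD, n = 3 and 3), a ratio of 3.14, and at Bmp7 it was 7387 ± 1437 against 3332 ± 226 bp, a ratio of 2.22. The ratio was 1.60 at Dhh, 1.57 at Bmp4 and 1.33 at Gdf7, and these 5 genes had no overlap between the groups. It was 2.97 at Bmp8b, 1.55 at Bmp6, 1.503 at Ihh, 1.48 at Bmp2 and 1.37 at Gdf6, where the groups overlapped.

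The 5 of 10 genes without overlap compare with 5.81% of all protein-coding genes that were higher in every WT cocaine library, and with 32.4% of the 2181 well-covered genes, a background chosen after the data were seen. None of the 10 genes was lower in every WT cocaine library, against 0.11% of all protein-coding genes and 0.0917% of the 2181. With 3 against 3 libraries the exact permutation test of the difference in means (two-sided) cannot go below p = 0.10. This value was reached by Shh, Dhh, Bmp4, Bmp7 and Gdf7, and with Benjamini-Hochberg adjustment over 8200 genes it became 0.633, so no difference passed the test. Without WT saline replicate 1 all 10 genes were higher without overlap, beside 60.1% of the well-covered genes, and 8 were so without WT cocaine replicate 3, beside 61.8%. The p-values measure the spread between libraries of pooled thalami.

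**Figure D3:**
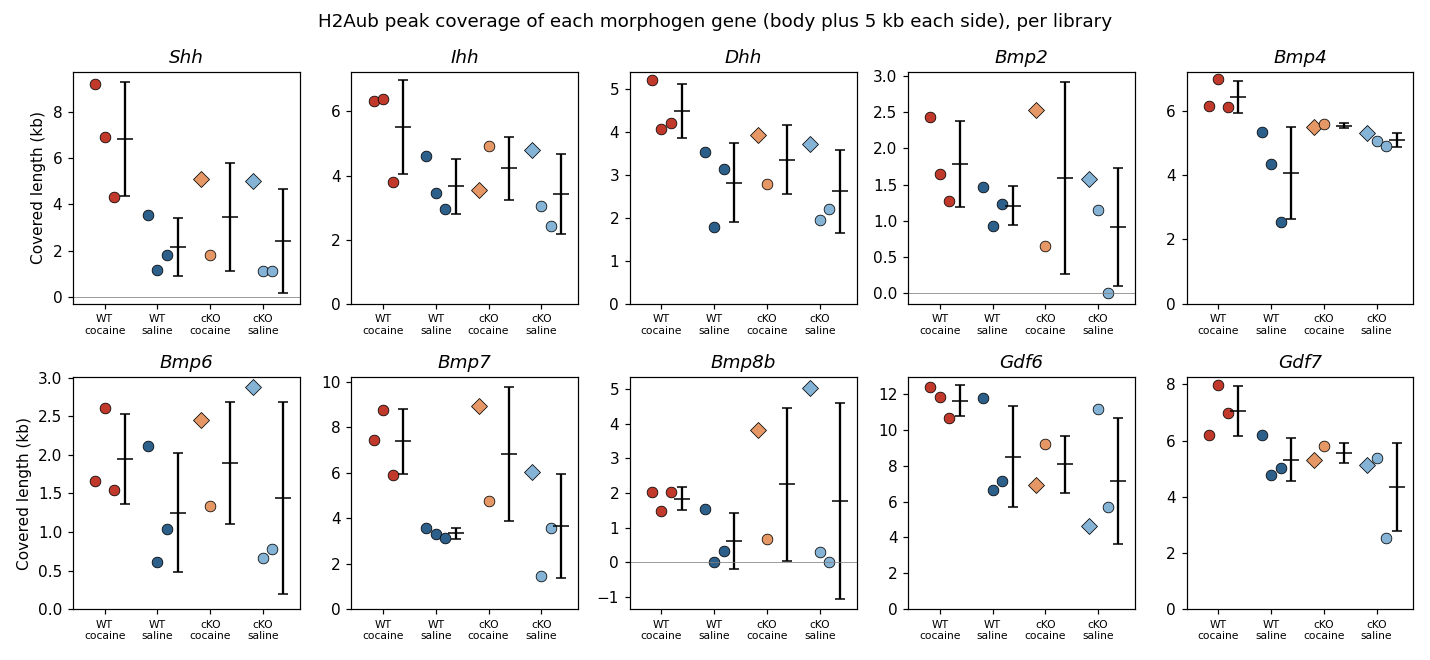
Length under H2Aub peaks (kb, vertical axis, scaled separately for each gene) in the window of each gene, per library and group; points are libraries, diamonds the cKO libraries numbered 1, and the bar beside each group its mean ± SD. At Shh, Dhh, Bmp4, Bmp7 and Gdf7 the 3 WT cocaine points lie above the 3 WT saline points.

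The increase in mean at the morphogen genes was close to that of the lists as a whole. Summed over the 10 genes, the covered length was 54864 ± 6994 bp after cocaine against 32965 ± 9304 bp after saline (SD, n = 3 and 3), a log2 difference of 0.76 ± 0.25 (SE). The total covered length of the lists differed by 0.77 on the same scale. The median log2 ratio of the 10 genes was 0.64, below the 0.83 of the 2178 well-covered genes with peaks in both groups. As a share of the covered length of each list, the sum over the 10 genes differed by -0.03 on the log2 scale, and per Mb of covered length 7 of the 10 genes had a lower mean in WT cocaine (997 of the well-covered genes). With equal numbers of peaks per library, the summed log2 difference was 0.77, with 8 of the 10 genes higher in mean (1775 of the well-covered genes) and 4 without overlap (24.1% of the well-covered genes). Those 4 were Shh, Dhh, Bmp7 and Bmp8b. Bmp4 and Gdf7 lost their separation there, as they did when only peaks with q at most 0.01 were used. Dhh and Bmp7 lost theirs when only both gene ends were counted.

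Shh was separated per Mb as well, although its groups overlapped when only peaks with q at most 0.01 were used (a difference of 2378 bp, against 4645 bp with all peaks). Per Mb of covered length, it had 534, 462 and 414 bp in WT cocaine, against 320, 207 and 214 bp after saline. Of the 10 genes it was the only one without overlap there, and 11.1% of the well-covered genes were higher and 6.51% lower on this scale. Shh in cKO cocaine had 240 and 163 bp per Mb, below all WT cocaine libraries and within the range of cKO saline (182, 145 and 262 bp per Mb).

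**Figure D4:**
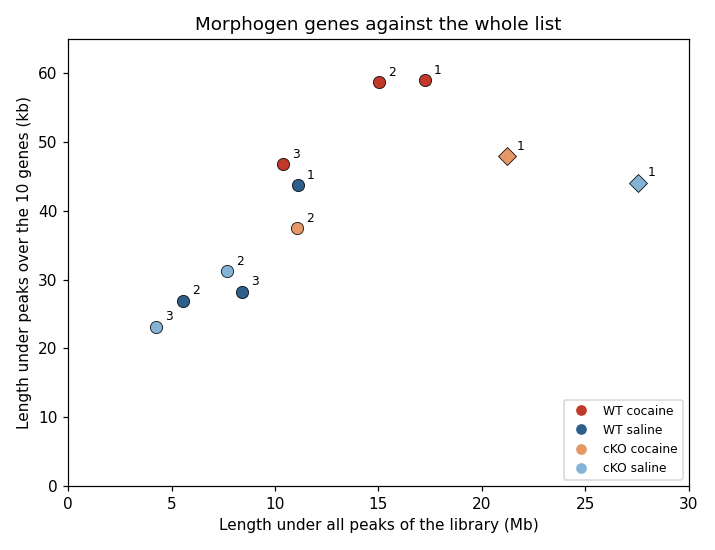
Length under peaks summed over the 10 genes (kb, vertical axis) against the length under all peaks of the library (Mb, horizontal axis), 1 point per library, coloured by group and numbered by replicate. In the other 9 libraries longer lists broadly go with more coverage of the genes, and the cKO libraries numbered 1 (diamonds) lie to the right, with 47979 and 44113 bp over the genes for 21.2 and 27.6 Mb in all.

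The same contrast was made in the cKO thalami. All 10 genes had a higher mean in cKO cocaine than in cKO saline, as did 1963 of the 2181 well-covered genes, and the summed length was 42752 ± 7393 against 32852 ± 10564 bp (SD, n = 2 and 3), a log2 difference of 0.42 ± 0.32 (SE). The total covered length of the lists differed by 0.30, and the median log2 ratio was 0.36 over the 10 genes and 0.51 over the 2181 well-covered genes. Bmp4 was the only gene without overlap, at 5534 ± 77.1 against 5091 ± 210 bp, a ratio of 1.09 (exact permutation p = 0.20, adjusted p = 1). Its separation was lost in 6 of 12 alternatives, and its difference turned to -8.33 bp with q at most 0.05, -360 bp with equal numbers of peaks and -288 bp per Mb of covered length. This 1 gene of 10 compares with 2.52% of all and 12.1% of the well-covered genes that were higher, while no morphogen gene was lower, against 0.0503% and 0.0917%. Bmp7 had the greatest ratio, 1.86, with an exact permutation p of 0.30. The mean was higher in cKO cocaine at 4 of the 10 genes per Mb of covered length, and at 6 with equal numbers of peaks (1300 and 1187 of the well-covered genes). The summed log2 difference turned negative as a share of the covered length of each list and with equal numbers of peaks. Without 1 library at a time it ranged from 0.192 to 0.657.

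The count changed with the libraries used, and leaving out either cKO cocaine library leaves 1 library to stand for that group. It was 7 when cKO saline replicate 1 was left out (66.1% of the well-covered genes), 5 for cKO cocaine replicate 2 (40.9%), and 3 for either cKO cocaine replicate 1 (24%) or cKO saline replicate 2 (18.8%). Without both libraries numbered 1, which leaves 1 cKO cocaine library against 2 cKO saline libraries, 8 of the 10 genes were higher in cKO cocaine without overlap, all but Bmp2 and Gdf6, beside 76.3% of the well-covered genes.

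Between the saline groups no morphogen gene separated the genotypes. The summed length was 32852 ± 10564 bp in cKO against 32965 ± 9304 bp in WT (SD, n = 3 per group), a log2 difference of -0.02 ± 0.35 (SE), while the covered length of the lists differed by 0.66. Of the 10 genes, 5 had a higher and 5 a lower mean in cKO saline (1333 and 848 of the well-covered genes), from a ratio of 0.753 at Bmp2 to 2.88 at Bmp8b, the latter carried by cKO saline replicate 1. The split was 2 higher and 8 lower per Mb of covered length, and 1 higher and 9 lower both with equal numbers of peaks and without cKO saline replicate 1. Of the well-covered genes, 1359, 1535 and 1811 were lower in mean under these settings. The settings are not independent, since all of them reduce the part of cKO saline replicate 1. With equal numbers of peaks it kept 8577 bp over the 10 genes, against 27936 and 23161 bp in the other cKO saline libraries. With all libraries and all peaks, none of the 10 genes was higher or lower without overlap, and the exact permutation p was 0.40 or above at every gene. Over all protein-coding genes 0.329% were higher and 0.37% lower, and over the well-covered genes 0.596% and 2.61%. Without cKO saline replicate 1, Shh was lower in cKO saline without overlap (1115 and 1109 bp against 1147 bp or more), beside 20.9% of the well-covered genes.

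Under cocaine, the covered length was lower in cKO than in WT at 9 of the 10 genes in mean, Bmp8b being the exception, and at 1225 of the 2181 well-covered genes. The summed length was 42752 ± 7393 against 54864 ± 6994 bp (SD, n = 2 and 3), a log2 difference of -0.36 ± 0.21 (SE), although the lists as a whole were longer in cKO cocaine by 0.18. The groups did not overlap at Dhh (ratio 0.747), Bmp4 (0.862), Gdf6 (0.694) and Gdf7 (0.787). Gdf6, for instance, measured 8074 ± 1602 bp in cKO cocaine and 11627 ± 876 bp in WT cocaine, and Shh, whose groups overlapped, 3445 ± 2330 against 6811 ± 2457 bp.

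These 4 lower genes of 10 stand beside 1.77% of all and 10.7% of the well-covered genes, and the 0 higher genes beside 3.6% and 4.22%. The exact permutation p was 0.10 at Dhh, Bmp4 and Gdf6 and 0.20 at Gdf7, with an adjusted p of 0.681 at all 4 over 11926 genes (Benjamini-Hochberg). The median log2 ratio was -0.28 over the 10 genes and -0.08 over 2180 well-covered genes. Without cKO cocaine replicate 1 the single cKO cocaine library was below all WT cocaine libraries at 9 genes, beside 44.1% of the well-covered genes. Without cKO cocaine replicate 2, the remaining one was below them at 5 genes (Ihh, Dhh, Bmp4, Gdf6 and Gdf7) and above them at 3 (Bmp2, Bmp7 and Bmp8b), beside 22% and 39.8% of the well-covered genes. Per Mb of covered length of the library, Bmp4, Gdf6 and Gdf7 overlapped between the cocaine groups, and the genes lower in cKO without overlap were Shh, Dhh and Bmp7, 3 of 10 beside 15.9% of the well-covered genes. With equal numbers of peaks 7 genes were lower without overlap, beside 3.46% of all and 27.2% of the well-covered genes. There cKO cocaine replicate 1 kept 9763 bp over the 10 genes, with 0 bp at Dhh, Bmp2, Gdf6 and Gdf7. Replicate 2 kept 31380 bp and the WT cocaine libraries 42652 to 50794 bp. At these 7 genes replicate 2 was also below every WT cocaine library. Over the gene body alone or both gene ends alone 2 were lower, beside 10.1% and 13.6%.

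Whether cocaine went with a different change in the 2 genotypes was tested gene by gene, by permuting treatment within genotype. The difference between cocaine and saline at Shh was 4645 bp in WT and 1030 bp in cKO, which differ by 3614.5 bp (exact permutation p = 0.26). The cKO value came from 2 cKO cocaine libraries of 5092 and 1797 bp, the second below the cKO saline mean of 2414 bp. Its sign thus rests on cKO cocaine replicate 1. At Bmp4 the difference between cocaine and saline was 2342 bp in WT and 442 bp in cKO (exact permutation p = 0.17, the lowest of the set). At Bmp2 the cKO difference, 680 bp, was slightly above the 575 bp of WT (exact permutation p = 0.93). The adjusted p was 1 at all 10 genes over 14474 genes with a peak (Benjamini-Hochberg over the exact permutation p-values, whose smallest possible value was 0.005). None of the 10 reached an unadjusted p of 0.05, against 0.318% of those genes. A difference between the genotypes in the response of these genes was thus not detectable with these libraries.

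The cKO libraries numbered 1 also differed from the rest in how strong their peaks at the morphogen genes were. The highest fold enrichment at a gene ran from 4.73 to 11.4 (median 8.99) in cKO cocaine replicate 1 and from 4.52 to 13.0 (median 8.07) in cKO saline replicate 1. In the other 9 libraries it ran from 3.04 to 5.06 (median 4.098). At Gdf7, Gdf6, Dhh and Bmp2 both libraries stayed between 4.52 and 6.11, and at the other 6 genes they lay between 7.41 and 13.0.

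Some of these strong peaks lay where most lists had peaks. At Bmp4 the peaks of cKO cocaine replicate 1 and cKO saline replicate 1 had folds of 9.88 and 13.0 over chr14:46385487-46389069, a region with a peak in all 9 other libraries. At Shh they had folds of 9.26 and 11.4 over chr5:28463973-28466488, with a peak in 8 others. Other strong peaks were shared by these libraries alone. Among 37 pairs of overlapping peaks at the 10 genes, 7 pairs touched no peak of the other 9 libraries, and these lay at Bmp6, Bmp7 and Bmp8b. The strongest were at Bmp7 (chr2:172868898-172869566, folds of 11.4 and 12.5) and Bmp8b (chr4:123118756-123119299, folds of 9.29 and 10.3), both within the gene body. Treatment differed between the libraries of each pair and genotype did not, but no other cKO library had these peaks. These are the libraries with the most and the narrowest peaks, and the part of this in the result was not tested.

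**Figure D5:**
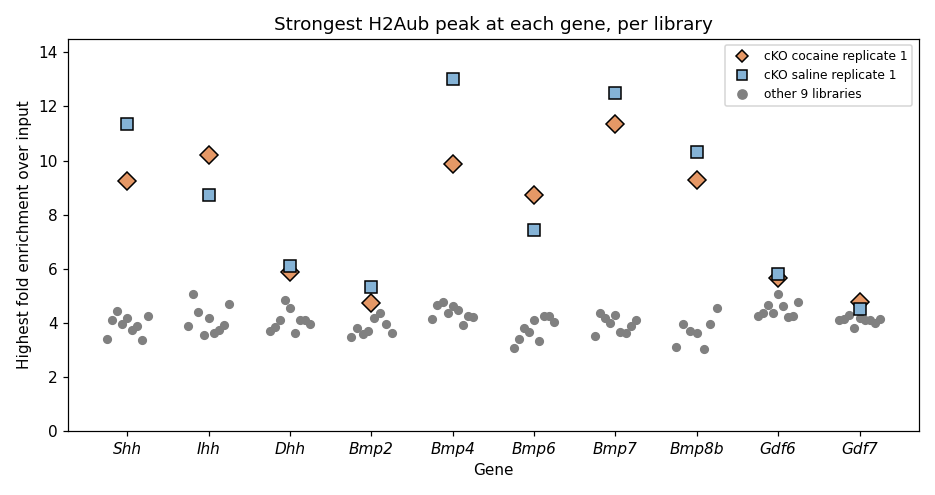
Highest fold enrichment over input of any H2Aub peak in the window of each gene (vertical axis, linear ratio as given by the peak caller), 1 point per library with a peak; grey circles are the 9 other libraries, the diamond cKO cocaine replicate 1 and the square cKO saline replicate 1. The grey points lie between 3.04 and 5.06, and the coloured ones reach 13.0 at Bmp4.

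The other genes of the pathways were read from a list of 52 genes sorted by role. A peak in every library was present at 16 of them, against 6.76% of all protein-coding genes, and at Chrdl1 in none. By role these were 6 of 13 other ligands of the superfamily, 3 of 13 genes of hedgehog reception and response, 0 of 6 Bmp receptors, 1 of 6 transducers, 3 of 8 antagonists and 3 of 6 genes of the Bmp response. The receptors were covered over 11.3 to 546 bp on average, and the receptor-activated Smad1, Smad5 and Smad9 over 216, 71.7 and 26.3 bp.

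The widest coverage in the list was over Msx1 and Msx2, homeobox targets of Bmp signalling, with medians of 12382 and 11262 bp over the 11 libraries. Smad6, an inhibitory Smad, had a median of 5811 bp. Of the hedgehog effectors, Gli2 had 5276 bp and Gli1, itself a target of the pathway, 4187 bp. The antagonists Fst and Nog, which bind activins and Bmp ligands respectively, had 3320 and 3148 bp, and the ligand genes Inhbb, Tgfb1 and Nodal 4353, 2698 and 2358 bp. Gli3 and Ptch1 had medians of 1944 and 182 bp. These 2 genes, Chrdl1 and the receptor-activated Smads fall outside the rule for named genes and were named after their values were seen.

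In WT cocaine against WT saline, 10 of the 52 genes were higher without overlap and 0 were lower, beside the 5.81% and 0.11% of all genes. Among them, Gli2 measured 9607 ± 2369 against 4791 ± 651 bp and Inhbb 5586 ± 1256 against 2685 ± 1531 bp (SD, n = 3 and 3), ratios of 2.01 and 2.08 (exact permutation p = 0.10 for both, adjusted p = 0.633). Msx1, Fst and Tgfb1 also belonged to the 10, while Gli1, at 4221 ± 1016 against 4566 ± 656 bp, overlapped. In cKO cocaine against cKO saline 3 genes were higher (Hhip, Cdon and Disp1) and 0 lower, beside 2.52% and 0.0503% of all genes. In cKO cocaine against WT cocaine 5 were higher (Bmp5, Gdf11, Boc, Disp1 and Sufu) and 1 was lower (Bmpr1b), beside 3.6% and 1.77% of all genes. These 8 genes (Disp1 counted once) fall outside the rule for named genes and are given because their number is small. Some lie near the floor: in cKO cocaine against WT cocaine the means were 128.5 against 36 bp at Bmp5 and 91.5 against 530 bp at Bmpr1b. Every pathway gene called in that comparison had an adjusted p of 0.681 (exact permutation, Benjamini-Hochberg). Between the saline groups 0 genes were higher and 0 lower.

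Outside both lists, the rank order of the sum over the 10 morphogen genes across the 11 libraries was followed most closely by Tle3 (Spearman rho = 0.991, Pearson r = 0.931), Hpcal1 (rho = 0.982, r = 0.985) and Septin9 (rho = 0.982, r = 0.943), out of 14405 candidates. Of these, 4 genes had a rho of at least 0.982, and Hpcal1 and Septin9 were taken from the tied ones by their Pearson r. The covered length of the whole list itself had a rho of 0.827 and an r of 0.657 with that sum. The libraries share their list length in all of these measures, and the values are given as a description.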

How the data were processed

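Per the labels and methods, the authors trimmed reads with Cutadapt, mapped them to mm10 with Bowtie2 (2.3.4.1), kept well-mapped reads and called broad peaks with MACS2 (2.1.1.20160309.3) against total input, separately for every library. The deposited lists gave peak positions, a score (10 times the −log10 q, decimals dropped), fold enrichment as a linear ratio, and −log10 p and −log10 q. The highest q was 0.0997. No list gave read counts, so depth per library is unknown and was not corrected for, and longer lists can come from deeper libraries.

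Gene positions came from a RefSeq table of GRCm38.p6 without strand, so gene ends are named by coordinate, and transcription start sites and promoter sequence were not used here. Peaks of chromosomes 1 to 19, X and Y, which did not overlap each other within a list, were intersected with each gene body plus 5 kb (Python 3.11.15, numpy 2.4.6, pandas 2.3.3). Libraries were grouped by their titles. Differences in mean covered length were tested by exact permutation over libraries for every protein-coding gene, with Benjamini-Hochberg adjustment over genes with a peak in the compared libraries. A gene was counted as higher or lower when the groups did not overlap. Sums over the 10 genes got no test. The code was tested on simulated data.

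Named were the 10 genes, at most 10 of the 52 listed pathway genes (widest median first, among those with a peak in every library or without overlap in a comparison), exceptions given as such in the text, neighbours in the windows and the 3 genes most alike by Spearman rho. The genes and lists were chosen with earlier results of these data known. Alternatives were other q limits, equal numbers of peaks, other windows, scaling to list length, leaving out libraries and the replicate block. With equal numbers of peaks, those kept at the 10 genes had the lowest q of their list. The block pairs libraries by number, so with 3 libraries in each group it cannot change a difference in means.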

Additional observations from a re-analysis of the deposited data

How the results depend on the processing

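As a share of the covered length of the library, the log2 difference of the summed length became -0.0286 in WT (cocaine against saline) and -0.249 in cKO. Per Mb of that length, Dhh, Bmp4 and Gdf7 were lower in WT cocaine (differences of -11.2, -51.65 and -149 bp per Mb), and Bmp4 in cKO differed by -288 bp per Mb; the genes higher without overlap numbered 1 in WT (11.1% of the well-covered genes) and 0 in cKO (10.6%). With 7271 peaks per library, the summed log2 difference was 0.770 for WT cocaine against WT saline, with 4 genes higher without overlap (24.1% of the well-covered genes). It was -0.0165 for cKO cocaine against cKO saline, -0.661 for cKO saline against WT saline and -1.45 for cKO cocaine against WT cocaine, the genes without overlap numbered 2 (higher), 1 (lower) and 7 (lower), beside 0.589%, 1.54% and 3.46% of all protein-coding genes and 2.93%, 13.3% and 27.2% of the well-covered ones, Bmp4 in cKO differed by -360 bp, and 3 genes had a peak in every library (16.4% of the well-covered). The percentages that follow are shares of the well-covered genes called in the same direction under the same setting. With q at most 0.01, 3 genes, Shh not among them, were higher without overlap in WT (21.5%) and 0 in cKO (7.47%), and 2 had a peak in every library (16.6%). With q at most 0.05, 0 were higher in cKO (11%) and Bmp4 differed by -8.33 bp there. The gene body alone gave 0 higher in cKO (10.1%) and 2 lower between the cocaine groups (10.1%). Both gene ends alone, a window chosen after seeing the data like the scaling per Mb, gave 2 lower between the cocaine groups (13.6%), with Gdf6 at 25.5 bp. The cause of these shifts was not tested.

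Without 1 library at a time, the summed log2 difference ranged from 0.635 to 0.983 in WT, 0.192 to 0.657 in cKO, -0.257 to 0.208 between the saline groups and -0.540 to -0.185 between the cocaine groups. Genes without overlap ranged from 5 to 10 in WT (10 without WT saline replicate 1, 60.1%; 8 without WT cocaine replicate 3, 61.8%), all higher. In cKO they ranged from 1 to 7 (7 when cKO saline replicate 1 was left out, 66.1%, 5 for cKO cocaine replicate 2, 40.9%, and 3 for cKO cocaine replicate 1, 24%, or cKO saline replicate 2, 18.8%), and 8 without both libraries numbered 1 (76.3%), all higher. Between the saline groups they ranged from 0 to 1 (1 lower without cKO saline replicate 1, 20.9%, or 2, 8.71%, and 1 higher without WT saline replicate 1, 6.01%), and between the cocaine groups from 4 to 9 (9 lower without cKO cocaine replicate 1, 44.1%; 8 without cKO cocaine replicate 2, of which 5 were lower, 22%, and 3 higher, 39.8%), where a lone library stood for its group. A lone library also stood for cKO cocaine in the cKO comparison when 1 of its libraries was left out. Smaller groups separate more easily. Genes with a peak in every library ranged from 8 to 9. The labels do not say that a replicate number marks a shared batch. Same-numbered deviations correlated at 0.0489, 0.0220 and -0.0259 in WT, 0.621 and 0.458 in cKO (2 pairs), 0.389, -0.0400 and -0.0458 between the saline groups and -0.0768 and -0.224 between the cocaine groups, so the numbers were not taken as pairs. The replicate block gave summed log2 differences of 0.192 in cKO and -0.473 between the cocaine groups. In WT (0.762) and between the saline groups (-0.0193) it can only repeat the main value. A transcription start window was planned and, without strand, not run. Over all alternatives, such repeats included, 89 summed values and counts were the same within their spread, 29 moved and 1 reversed. Of single-gene values 451 were the same, 52 moved and 7 reversed. Depth not known per library limits every comparison of covered length.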
